A study of Mus musculus with 16 samples.

Results

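The interleukin-6 family was followed here in mouse brain through 10 genes: the cytokines Il6, Il11, Lif, Osm and Clcf1, the receptors Il6ra, Il6st and Osmr, and the signalling genes Stat3 and Socs3. They were chosen by name, as probe sets of Affymetrix Mouse Gene 1.0 ST arrays whose only gene symbol in the platform annotation is one of these. All 10 had a probe set and are 10 of the 19938 genes tested. Socs3 had a pair of probe sets, and the remaining members had 1 each. For Socs3 the brighter probe set stands for the gene, and the other is given beside it because the pair disagreed.

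Whole brains came from male mice of 8 weeks, and 1 array was used per sample, 16 in all. The 4 groups of 4 arrays were naive C57BL/6 mice, C57BL/6 mice 24 h after permanent middle cerebral artery occlusion (pMCAO, a model of ischaemic stroke), naive mice labelled TNF knockout, and mice with that label 24 h after pMCAO. Naive mice had no operation, so each stroke group differs from its naive group by surgery and occlusion together. The labels do not say how the knockout was made, on which strain background, or whether each array is a separate animal. If arrays shared animals, the p-values would measure technical spread only. Values are log2 probe set summaries, and a difference of 1 is a doubling. Means are given ± SD with n = 4 arrays, and differences ± SE from limma, with p-values adjusted by Benjamini and Hochberg over all genes tested.

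Array medians ran from 6.01 to 6.05, and arrays of the same group correlated at 0.991 to 0.996 over all probe sets. Tnf, the targeted gene, read higher in the arrays labelled TNF knockout, by 1.11 ± 0.14 in naive mice and 1.24 ± 0.14 after stroke (limma, adjusted p = 0.00056 and 0.0001). This goes against the label, so these groups are called by it throughout. Whether its probe set covers the deleted part is unknown here. The tissue label was checked against marker lists: all 9 neuronal, 9 astrocyte and 5 oligodendrocyte markers had means above the array medians, and 0 of 10 neutrophil, 4 monocyte and 5 T lymphocyte markers did. In these bulk samples, more cells of a type and more RNA per cell cannot be told apart.

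Interleukin-6 family cytokines signal through receptor complexes that share the chain gp130, encoded by Il6st. The complex activates JAK kinases, which phosphorylate STAT3, and STAT3 then enters the nucleus and drives transcription. Among its targets is Socs3, whose product binds gp130 and shuts the signal down. In brain the pathway is known for its part in turning astrocytes reactive after injury.

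After stroke, Osmr, Socs3 and Stat3 were higher in both genotype labels. Osmr, the signalling chain for oncostatin M, rose 2.49-fold in C57BL/6 mice and 2.03-fold in the TNF knockout label. Socs3 rose 1.53-fold and 1.77-fold, and Stat3 rose 1.45-fold and 1.43-fold. Il6 and Clcf1 passed the threshold in the TNF knockout label only, and the difference of the stroke changes between the labels did not pass it for any member. Il6ra, Osm and the second Socs3 probe set lay within 0.17 log2 units of naive in both labels. Of the 10 members, 3 rose and 0 fell in C57BL/6 mice, against a background of 1.68 percent of all genes called there and 1.34 percent called higher. For the TNF knockout label 5 rose and 0 fell, against a background of 0.642 percent called and 0.537 percent called higher. The median difference of the members was 0.30 and 0.49, against -0.01 and 0.00 over all genes tested. The members were chosen with earlier results of these data known, so these shares are a description.

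**Figure D1:**
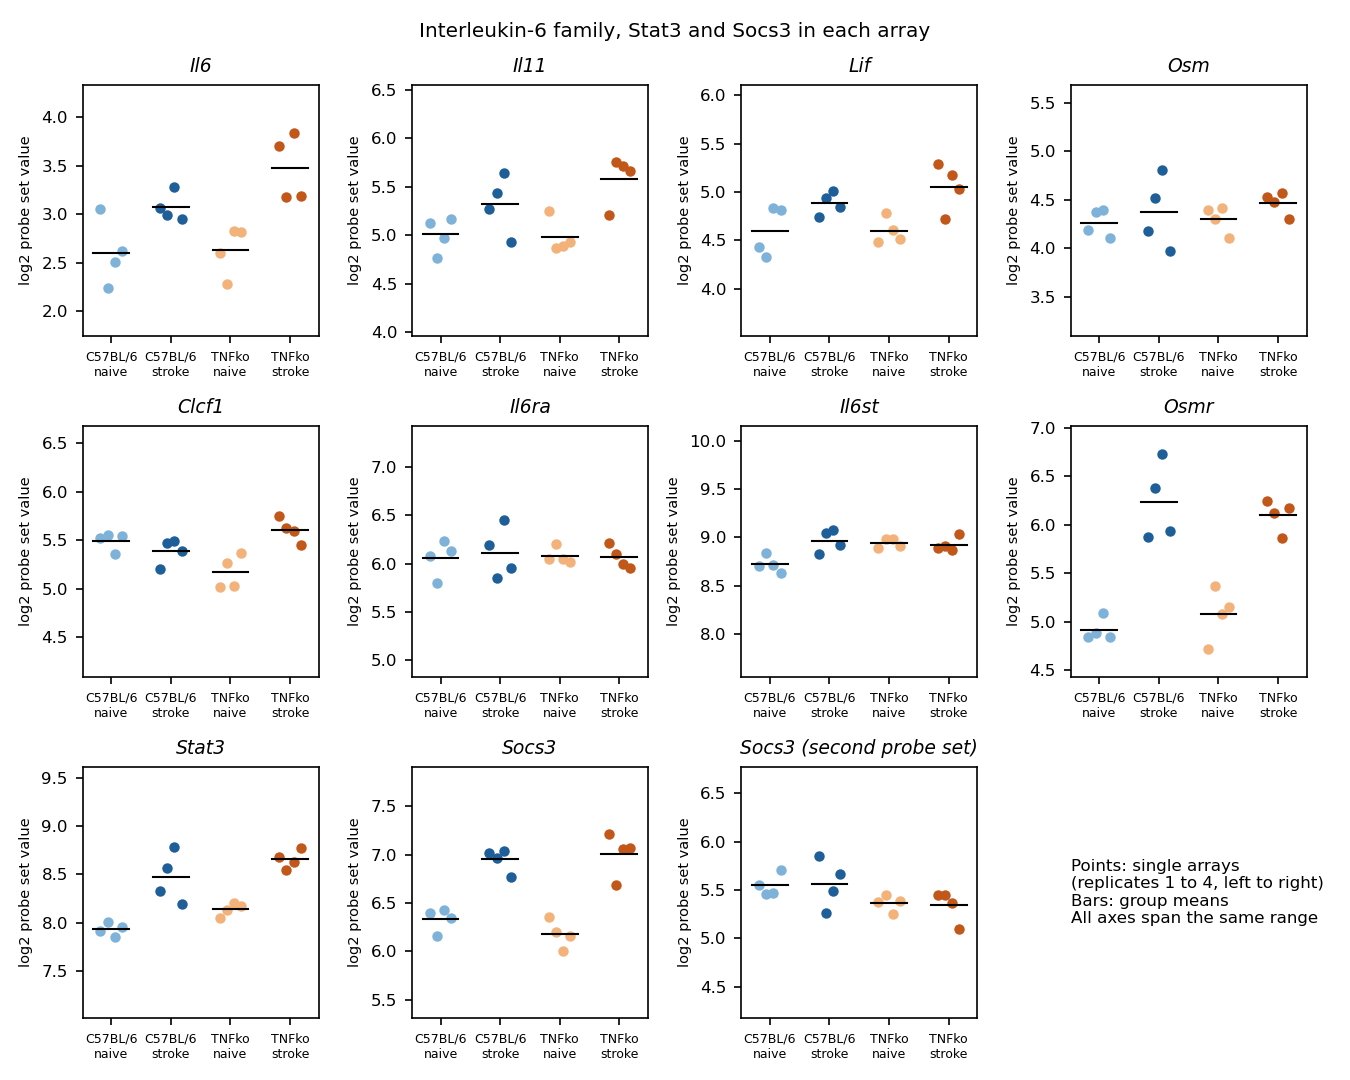
Log2 probe set value (vertical axis) of each member in the 16 arrays by group (horizontal axis), with the second Socs3 probe set as the last panel. Points are arrays, bars are means of 4, and all panels span the same range. Osmr, Stat3 and Socs3 show stroke arrays wholly above naive arrays in both labels, and the second Socs3 probe set does not.

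The RefSeq promoter table (GRCm38.p6) held an entry for 8 of the 10 members, all but Osm and Clcf1. The 250 bases before the start site are shown for the 3 genes that rose in both labels and for Il6, the cytokine with the largest difference from naive in both. They were searched on both strands for the STAT motif TTCNNNGAA and an NF-kB motif, which do not overlap in these windows, and matches are in capitals. The motifs were chosen after the values were seen. Among all 32851 promoter windows of this length, 7.02 percent held the first motif and 0.356 percent the second. The annotated genes of Osmr, Stat3 and Socs3 reach further upstream than the start used here, to 6874968, 100939594 and 117970336. Bases before those outer ends were not searched for Osmr and Socs3. The window of Osmr lies at chr15:6874314-6874563, that of Stat3 at chr11:100939541-100939790 and that of Socs3 at chr11:117969367-117969616, all on the minus strand. The window of Il6 lies at chr5:30012864-30013113 on the plus strand. Each is written 5′ to 3′ along the gene's strand.
Osmr: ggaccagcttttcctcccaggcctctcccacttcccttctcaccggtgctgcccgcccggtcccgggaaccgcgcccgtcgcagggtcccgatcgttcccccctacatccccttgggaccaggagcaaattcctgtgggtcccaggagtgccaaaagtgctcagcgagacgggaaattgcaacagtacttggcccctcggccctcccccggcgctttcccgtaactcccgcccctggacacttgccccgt
Stat3: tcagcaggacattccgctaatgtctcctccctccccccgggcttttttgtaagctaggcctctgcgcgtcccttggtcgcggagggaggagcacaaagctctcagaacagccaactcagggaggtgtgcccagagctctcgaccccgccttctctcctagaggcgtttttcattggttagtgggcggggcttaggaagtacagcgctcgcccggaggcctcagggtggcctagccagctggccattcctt
Socs3: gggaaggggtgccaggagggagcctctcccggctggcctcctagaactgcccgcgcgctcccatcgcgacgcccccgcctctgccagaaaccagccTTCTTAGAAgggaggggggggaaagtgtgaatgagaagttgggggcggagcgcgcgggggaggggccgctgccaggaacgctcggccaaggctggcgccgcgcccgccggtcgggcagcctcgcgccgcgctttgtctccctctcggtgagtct
Il6: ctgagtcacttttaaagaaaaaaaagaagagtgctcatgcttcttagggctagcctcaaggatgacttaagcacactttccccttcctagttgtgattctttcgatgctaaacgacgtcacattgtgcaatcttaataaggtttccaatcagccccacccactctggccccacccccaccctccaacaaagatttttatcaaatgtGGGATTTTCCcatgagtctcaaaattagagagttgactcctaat

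Socs3 held the STAT motif as TTCTTAGAA, from 154 to 146 bases before the start. Il6 held the NF-kB motif as GGGATTTTCC, from 44 to 35 bases before the start. The Osmr and Stat3 windows held neither set of letters, and neither did those of Il6ra, Il6st, Il11 and Lif. A match is a description of the letters, and its absence says nothing about a factor's binding elsewhere.

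Among the receptors, Osmr pairs with gp130 to form the oncostatin M receptor. In naive C57BL/6 arrays it read 4.84, 4.88, 5.09 and 4.84, and after stroke 5.87, 6.38, 6.73 and 5.94. All stroke arrays were above all naive arrays, with arrays 2 and 3 the highest. The change was 1.32 ± 0.16 (limma, adjusted p = 0.00012), the 12th smallest p-value of that comparison. Naive arrays of the TNF knockout label read 4.72, 5.37, 5.08 and 5.15 and its stroke arrays 6.25, 6.12, 5.86 and 6.17. The groups did not overlap there either, and the change was 1.02 ± 0.16 (adjusted p = 0.0017). Both calls were kept whichever of the 16 arrays was left out, with changes from 1.15 to 1.44 and from 0.90 to 1.12. Stroke arrays wholly above naive arrays were found for 3 members in C57BL/6 mice and 5 in the TNF knockout label, the same ones that were called, and for 5.03 and 2.80 percent of all genes.

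Il6st, encoding gp130, is the chain that the 5 cytokines described here use. Its naive C57BL/6 arrays read 8.70, 8.84, 8.71 and 8.63, and the stroke arrays 8.83, 9.04, 9.08 and 8.92. The ranges touched, and the difference of 0.25 ± 0.08 did not pass (adjusted p = 0.11). It passed without C57BL/6 stroke array 1 (0.29, adjusted p = 0.047). Il6st in the TNF knockout label read 8.89, 8.98, 8.98 and 8.91 in naive arrays and 8.89, 8.91, 8.87 and 9.03 after stroke. The ranges overlapped, with stroke array 3 below and stroke array 4 above all naive arrays of that label, and a difference of -0.01 ± 0.08 and a 95% interval from -0.17 to 0.14.

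Il6ra, the ligand-binding chain for interleukin-6, read 5.80 to 6.23 in naive and 5.85 to 6.45 in stroke arrays of C57BL/6 mice. Its readings in the TNF knockout label were 6.02 to 6.20 and 5.95 to 6.21. The ranges overlapped in both labels, with differences of 0.05 (95% interval -0.19 to 0.29) and -0.02 (-0.26 to 0.22).

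Among the cytokines, Il6 was the dimmest member, with a mean of 2.95 over all arrays, above that of only 4.2 percent of the genes tested. Detection p-values were not used here, so its distance from background is unknown. The naive C57BL/6 arrays read 3.05, 2.24, 2.51 and 2.62, and the stroke arrays 3.07, 2.99, 3.28 and 2.95. Naive array 1 reached into the stroke range, and the difference of 0.47 ± 0.17 did not pass (adjusted p = 0.16). Naive arrays of the TNF knockout label read 2.60, 2.28, 2.83 and 2.82, and its stroke arrays 3.71, 3.18, 3.84 and 3.19. These groups did not overlap, and Il6 rose by 0.85 ± 0.17, a 1.80-fold increase (adjusted p = 0.018). This call was lost without naive array 1 (adjusted p = 0.060) or 2 (0.089), or without stroke array 1 (0.077) or 3 (0.089).

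Clcf1 encodes a cytokine that signals through the ciliary neurotrophic factor receptor. In C57BL/6 mice it read 5.52, 5.55, 5.36 and 5.54 in naive arrays and 5.20, 5.47, 5.49 and 5.39 after stroke, ranges that overlapped (-0.10 ± 0.10, adjusted p = 0.61). Clcf1 in the TNF knockout label read 5.02, 5.27, 5.03 and 5.37 in naive arrays and 5.75, 5.63, 5.60 and 5.45 after stroke. All stroke arrays of this label were above its naive arrays, and Clcf1 rose by 0.44 ± 0.10 (adjusted p = 0.037). The call was lost without naive array 1, 2 or 3 (adjusted p = 0.17, 0.067 and 0.16) and without stroke array 1, 2 or 3 (0.15, 0.10 and 0.11). It was lost as well with quantile normalization (adjusted p = 0.114) and when only the groups compared were fitted (0.088).

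Lif, a cytokine that signals through gp130 and its own receptor chain, read 4.33 to 4.84 in naive and 4.74 to 5.01 in stroke arrays of C57BL/6 mice. Lif in the TNF knockout label read 4.48 to 4.78 and 4.72 to 5.29. The ranges overlapped in both labels. The differences of 0.28 ± 0.13 and 0.46 ± 0.13 did not pass (adjusted p = 0.26 and 0.15), and the second passed without stroke array 2 of that label (0.57, adjusted p = 0.038).

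Il11, which binds its own receptor chain together with gp130, read 4.76 to 5.17 in naive and 4.93 to 5.64 in stroke arrays of C57BL/6 mice (0.31 ± 0.14, adjusted p = 0.28). Il11 in the TNF knockout label read 5.25, 4.87, 4.89 and 4.93 in naive arrays and 5.21, 5.75, 5.71 and 5.66 after stroke. Array 1 of each group closed the gap between them, and the difference of 0.60 ± 0.14 missed the threshold (adjusted p = 0.071). It passed without stroke array 1 of that label (0.72, adjusted p = 0.021), with a trended and robust variance prior (adjusted p = 0.043), and without C57BL/6 stroke array 3 or 4 (0.042 and 0.032), which alter only the pooled spread.

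Osm, the ligand of the receptor that holds the Osmr chain, read 4.11 to 4.39 in naive and 3.97 to 4.81 in stroke arrays of C57BL/6 mice. Osm in the TNF knockout label read 4.10 to 4.42 and 4.30 to 4.57. The differences were 0.10 (95% interval -0.18 to 0.39) and 0.17 (-0.12 to 0.45). Both intervals lie below those of the Osmr changes, 0.99 to 1.65 and 0.69 to 1.35. Osm was dim, with a mean of 4.35 over all arrays, above that of only 19.0 percent of the genes tested. Its distance from background is unknown here, so a change could be muted in these readings.

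**Figure D2:**
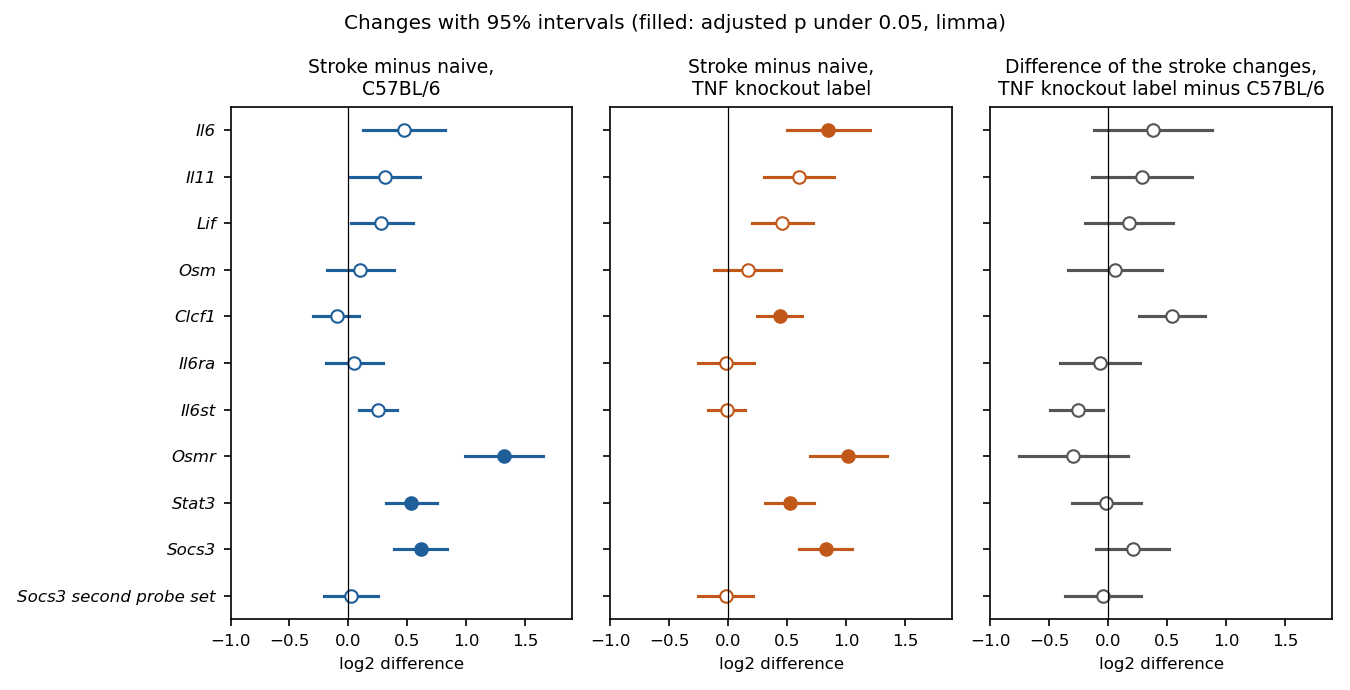
Log2 difference (horizontal axis) of each member, with its 95% interval from limma, for stroke against naive in each label and for the difference of these changes. Filled points have an adjusted p under 0.05: Osmr, Stat3 and Socs3 in C57BL/6 mice, the same 3 with Il6 and Clcf1 in the TNF knockout label, and none in the third panel.

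Of the signalling genes, Stat3 encodes the transcription factor that gp130 activates. It read 7.92, 8.01, 7.85 and 7.96 in naive and 8.33, 8.57, 8.78 and 8.20 in stroke arrays of C57BL/6 mice. The groups did not overlap, and the naive arrays spanned far less than the stroke arrays. Stat3 rose by 0.53 ± 0.10 (adjusted p = 0.0095), a call that was lost when only these groups were fitted (adjusted p = 0.072). Stat3 in the TNF knockout label read 8.05, 8.13, 8.21 and 8.17 in naive and 8.68, 8.55, 8.63 and 8.77 in stroke arrays, again without overlap. The rise was 0.52 ± 0.10 (adjusted p = 0.014), not past the threshold without naive array 1 or 2 of that label (adjusted p = 0.064 and 0.054) or its stroke array 4 (0.071).

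Socs3, the feedback inhibitor, read 6.40, 6.16, 6.43 and 6.35 in naive and 7.02, 6.97, 7.04 and 6.77 in stroke arrays of C57BL/6 mice. Socs3 in the TNF knockout label read 6.36, 6.20, 6.01 and 6.16 in naive and 7.21, 6.69, 7.06 and 7.07 in stroke arrays. No stroke array reached down to a naive one in either label. The changes were 0.62 ± 0.11 (adjusted p = 0.0050) and 0.83 ± 0.11 (adjusted p = 0.00025), and both calls were kept whichever of the 16 arrays was left out.

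The second Socs3 probe set gave another picture. In C57BL/6 mice it read 5.55, 5.46, 5.47 and 5.71 in naive and 5.85, 5.26, 5.49 and 5.66 in stroke arrays. Its readings in the TNF knockout label were 5.38, 5.45, 5.25 and 5.39 in naive and 5.45, 5.45, 5.37 and 5.10 in stroke arrays. The groups overlapped in both labels, with differences of 0.02 (95% interval -0.21 to 0.25) and -0.02 (-0.26 to 0.21). The intervals of the first probe set were 0.39 to 0.84 and 0.60 to 1.05. The second was singled out because it disagreed, so setting these intervals side by side is no test. The annotation ties the first probe set to 3 sequence records, 1 of them a RefSeq transcript, and the second to 1 record that is no RefSeq transcript.

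Within each array the first probe set stood above the second by 0.64 to 0.96 in naive and 1.11 to 1.71 in stroke arrays of C57BL/6 mice. For the TNF knockout label this gap was 0.75 to 0.98 in naive and 1.24 to 1.97 in stroke arrays. The mean gap was wider after stroke by 0.60 and 0.85, and its naive and stroke ranges did not overlap in either label. The second probe set was singled out because it disagreed with the first, so this is a description with no test. Which of them reports the full transcript was not tested.

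In the C57BL/6 stroke group, array 3 was the highest of the 4 for all 10 members. Over all genes tested, array 3 was the highest in 17.0 percent, the least often of the 4 arrays of that group. It was also the highest for 121 of the 267 genes called higher after stroke in C57BL/6 mice and for 33 of the 81 other pathway genes described below. In the TNF knockout stroke group the highest array was array 1 for 5 members, array 3 and array 4 for 2 each and array 2 for 1. This pattern was noticed after the values were seen, and the members are not independent of each other.

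Array 3 of the C57BL/6 stroke group also had the highest mean of the neutrophil markers (4.44, against 4.04 to 4.23 in the other arrays) and of the monocyte markers (4.31, against 3.75 to 4.19). None of these markers had a mean above the array medians, from Ly6g at 3.07 to Csf3r at 5.32 for neutrophils and from Ccr2 at 3.34 to F10 at 5.32 for monocytes, and their part in the pattern was not tested. Its microglia and macrophage markers averaged 6.90, against 6.72, 6.98 and 6.95. Without this array Osmr rose by 1.15, Socs3 by 0.59 and Stat3 by 0.43 in C57BL/6 mice (adjusted p = 0.00034, 0.025 and 0.037), while the count of all genes called there went from 334 to 107.

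**Figure D3:**
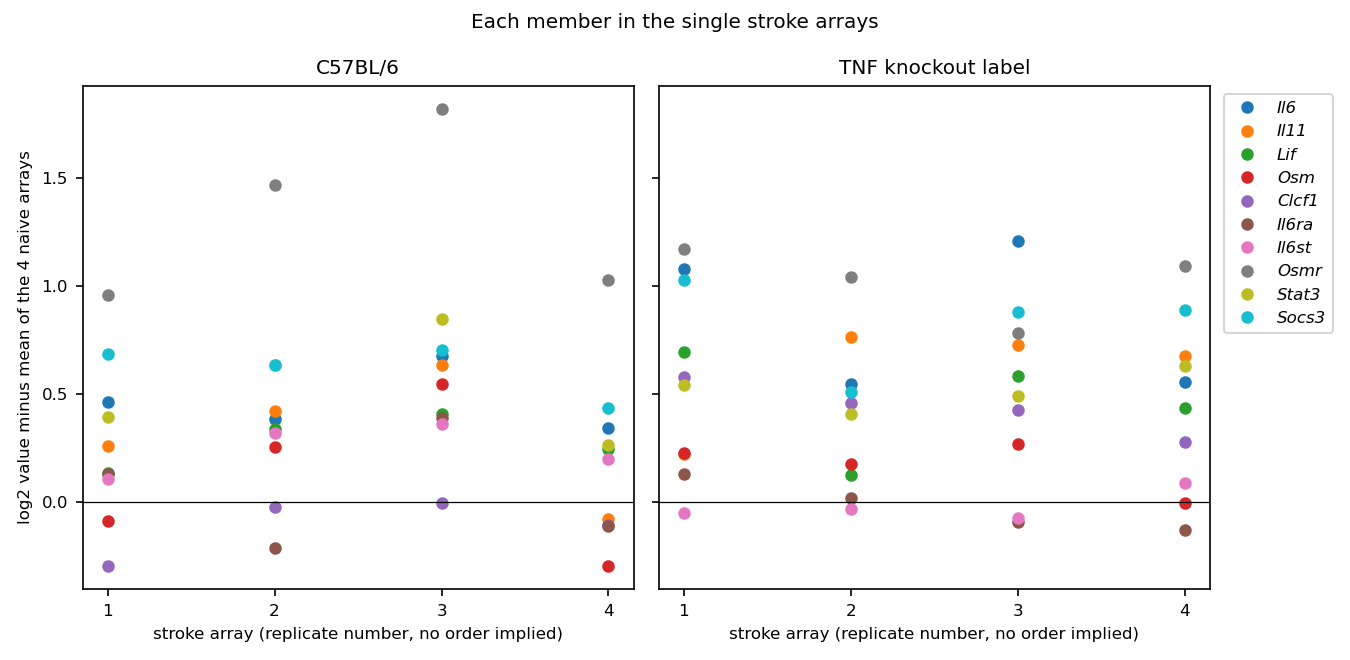
Log2 value of each member in single stroke arrays (horizontal axis, by replicate number) minus the mean of the 4 naive arrays of the same label (vertical axis). In C57BL/6 mice array 3 holds the highest point of all 10 members, while in the TNF knockout label the highest point falls on array 1 for 5 of them.

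The labels' sample names split the TNF knockout arrays by prefix, KL76 (3 naive and 1 stroke array) and KL82 (1 naive and 3 stroke arrays), with no meaning given. Within KL76 and KL82 the stroke difference was 1.19 and 0.90 for Osmr, 1.02 and 0.78 for Socs3, and 0.55 and 0.48 for Stat3. It was 1.14 and 0.58 for Il6, and 0.64 and 0.19 for Clcf1. Equal signs were bound to follow for these genes, since their stroke arrays lay wholly above their naive arrays in this label. Elsewhere the signs differed for Il6ra (0.11 and -0.01), Il6st (-0.06 and 0.03) and the second Socs3 probe set (0.09 and -0.08). They were equal for Il11, Lif and Osm. Each within-prefix value rests on a single array on one side. With the prefix as a term, Osmr (1.05, adjusted p = 0.012) and Socs3 (0.90, adjusted p = 0.00075) stayed past the threshold. Stat3 (0.51, adjusted p = 0.076), Il6 (0.86, adjusted p = 0.080) and Clcf1 (0.42, adjusted p = 0.17) did not. All C57BL/6 arrays carry the prefix KL42, so between the labels prefix and genotype cannot be told apart.

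Between the labels, no member passed in naive mice (0 of 10 by limma, against a background of 0.386 percent of all genes) or after stroke (0 of 10, against 0.436 percent). At an unadjusted p under 0.05 there were 2 members in each, where 16.6 and 11.3 percent of all genes reached it. In naive mice these were Clcf1, at -0.32 ± 0.10 in the TNF knockout label (adjusted p = 0.12), and Il6st, at 0.22 ± 0.08 (adjusted p = 0.17). Il6st and Stat3 were each higher in every naive array of the TNF knockout label than in every naive C57BL/6 array, as were 4.50 percent of all genes. For Stat3 that difference was 0.20 ± 0.10 (adjusted p = 0.31). After stroke the 2 members were Il6, at 0.41 ± 0.17 (adjusted p = 0.36), and Clcf1, at 0.22 ± 0.10 (adjusted p = 0.39).

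The difference of the stroke changes, TNF knockout label minus C57BL/6, passed for 0 of 10 members and 0.00 percent of all genes (limma). Clcf1 had the smallest p-value of the members there, ranked 33rd of all genes, with 0.54 ± 0.14 (95% interval 0.26 to 0.82, adjusted p = 0.43). Il6st followed with -0.26 ± 0.11 (-0.49 to -0.04, adjusted p = 0.62). At an unadjusted p under 0.05 these 2 were the only members, where 7.42 percent of all genes reached it. The intervals were -0.76 to 0.17 for Osmr, -0.10 to 0.52 for Socs3 and -0.31 to 0.28 for Stat3.

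Ordered by mean, Osmr was highest in C57BL/6 stroke arrays (6.23 ± 0.40) and then in stroke arrays of the TNF knockout label (6.10 ± 0.17), its naive arrays (5.08 ± 0.27) and naive C57BL/6 arrays (4.91 ± 0.12). The stroke groups did not differ beyond their spread (-0.13 ± 0.16), nor did the naive groups (0.17 ± 0.16). Stat3 ran from 8.66 ± 0.09 in stroke arrays of the TNF knockout label through 8.47 ± 0.26 and 8.14 ± 0.07 to 7.94 ± 0.07 in naive C57BL/6 arrays. Socs3 ran from 7.01 ± 0.22 in the same stroke group through 6.95 ± 0.12 and 6.34 ± 0.12 to 6.18 ± 0.14 in its naive arrays. For both genes neither the stroke groups nor the naive groups differed between the labels past the threshold. Every stroke array read above every naive array of either label for Socs3, while for Stat3 the lowest C57BL/6 stroke array (8.20) lay just under the highest naive array of the TNF knockout label (8.21).

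The rest of the pathway was read from 4 gene lists, chosen with earlier results of these data known. Of 9 measured further ligands and receptors of the family, among them Lifr, Cntfr, Ctf1 and Il27, 0 passed in either label (limma). At an unadjusted p under 0.05 there were 0 in C57BL/6 mice and 1 in the TNF knockout label, where 17.1 and 8.39 percent of all genes reached it. The list holds Il31 and Il31ra, whose products signal with the Osmr chain and without gp130. Lifr, the chain used by leukaemia inhibitory factor, differed by 0.19 and 0.01, and Cntfr by 0.01 and -0.06. The list's median differences were -0.11 and -0.02.

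Of 26 JAK-STAT genes and inhibitors, 1 (3.85 percent) rose and 0 fell in each label, where 1.34 and 0.537 percent of all genes were called higher. The list's medians were 0.06 and -0.01. Stat6, which acts downstream of interleukin-4, rose in C57BL/6 mice from 6.40 ± 0.07 to 6.73 ± 0.10 (adjusted p = 0.025). That call was lost without naive array 1 or 2 or stroke array 2 or 3 of those mice (adjusted p from 0.069 to 0.077). In the TNF knockout label Stat6 read 6.73 ± 0.09 in naive and 6.74 ± 0.04 in stroke arrays (limma, adjusted p = 0.99). All naive arrays of that label lay above all naive C57BL/6 arrays for Stat6. That difference, 0.33 ± 0.07, missed the threshold (adjusted p = 0.054) and passed without C57BL/6 stroke array 4 (0.047). Stat2, which acts in interferon signalling, rose in the TNF knockout label from 7.17 ± 0.04 to 7.59 ± 0.10 (adjusted p = 0.014). It was also higher there than in C57BL/6 stroke arrays, at 7.18 ± 0.13 (0.41 ± 0.08, adjusted p = 0.024), the only gene of this list past the threshold between labels. The stroke call of Stat2 was lost when the prefix entered the fit (adjusted p = 0.063) and on leaving out naive array 1 or stroke array 3 or 4 of that label (0.050, 0.059 and 0.071). The call between labels was lost without stroke array 1, 2 or 4 of C57BL/6 mice or 1, 3 or 4 of the TNF knockout label (adjusted p from 0.052 to 0.11). The difference of the stroke changes passed for neither Stat6 nor Stat2 (limma, adjusted p = 0.54 and 0.67). The kinase genes Jak1 and Jak2 differed from naive by 0.00 and 0.14 in C57BL/6 mice and by 0.00 and -0.05 in the TNF knockout label. Socs1, another feedback inhibitor, differed by -0.19 and 0.24.

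Of 26 genes known as STAT3 targets in various cells, 6 (23.1 percent) rose and 0 fell in C57BL/6 mice, where 1.34 percent of all genes were called higher. The list's median was 0.23, against -0.01 over all genes. In the TNF knockout label 10 (38.5 percent) rose and 0 fell, where 0.537 percent of all genes were called higher, with a median of 0.42 against 0.00. The difference of the stroke changes passed for 0 of the 26 genes (limma). Between the labels 0 passed after stroke (median 0.02). In naive arrays 6 of 26 were higher in the TNF knockout label (median -0.08), and 1 passed there, Junb, which was lower. Over all genes 0.436 and 0.386 percent passed in these comparisons. The list was chosen with earlier results known, so these shares are a description. The part of STAT3 in these changes was not tested. Vim and Gfap, filament genes of reactive astrocytes, rose in both: Vim by 0.78 ± 0.09 and 0.74 ± 0.09, and Gfap by 0.72 ± 0.15 and 0.83 ± 0.15. Zfp36, which speeds the decay of cytokine messengers, rose by 0.57 ± 0.12 and 0.83 ± 0.12. Tnfrsf1a, a receptor for TNF, rose by 0.57 ± 0.10 and 0.59 ± 0.10. Ccl2, a monocyte chemokine, rose by 0.62 ± 0.15 (adjusted p = 0.048) and 1.11 ± 0.15 (adjusted p = 0.00057). Bcl3, a nuclear partner of NF-kB, rose by 0.77 ± 0.11 and the transcription factor gene Cebpd by 0.56 ± 0.10, both in the TNF knockout label. In C57BL/6 mice they differed by 0.36 and 0.20 (limma, adjusted p = 0.11 and 0.29). The growth regulator Myc rose by 0.64 ± 0.13 in C57BL/6 mice. In the TNF knockout label it differed by 0.54 ± 0.13, without overlap (adjusted p = 0.074). The difference of the stroke changes did not pass for Bcl3, Cebpd or Myc.

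Several of these calls were lost when 1 array was left out. Without C57BL/6 naive array 1 or stroke array 3 the C57BL/6 calls of Gfap, Myc and Zfp36 were lost (adjusted p from 0.056 to 0.069). Zfp36 lost it also without naive array 2 or stroke array 2 (0.057 and 0.055), and Gfap without stroke array 2 (0.051). Ccl2 kept its call there for only 3 of the 16 arrays left out in turn, with an adjusted p of up to 0.165. With the prefix in the fit, the call of Gfap in the TNF knockout label was lost (0.68, adjusted p = 0.084). Junb, an immediate early transcription factor gene, was lower in naive arrays of the TNF knockout label than in naive C57BL/6 arrays, at 5.61 ± 0.16 against 6.13 ± 0.07 (adjusted p = 0.034). It lost this without naive array 1, 3 or 4 of C57BL/6 mice or 2, 3 or 4 of the TNF knockout label (adjusted p from 0.065 to 0.12).

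Of 20 acute-phase genes, 5 rose and 0 fell in C57BL/6 mice and 4 rose and 0 fell in the TNF knockout label, with a median of 0.07 in both. Over all genes 1.34 and 0.537 percent were called higher, with medians of -0.01 and 0.00. A2m, encoding a protease inhibitor of plasma, went from 6.38 ± 0.07 to 7.38 ± 0.34 in C57BL/6 mice and from 6.28 ± 0.09 to 7.18 ± 0.24 in the TNF knockout label. Cp, encoding the ferroxidase ceruloplasmin, rose by 0.48 ± 0.09 and Lbp, whose product binds lipopolysaccharide, by 0.49 ± 0.11 in C57BL/6 mice (adjusted p = 0.012 and 0.032). Without stroke array 3 of those mice both were lost (adjusted p = 0.055 and 0.058), and Lbp was lost as well without their naive array 1 or 2 or stroke array 1 or 4 (0.054 to 0.10). In the TNF knockout label Cp differed by 0.26 and Lbp by 0.30, both without overlap (limma, adjusted p = 0.35 and 0.39). Saa3, a serum amyloid gene, rose by 0.63 ± 0.14 in the TNF knockout label (adjusted p = 0.043) but kept this for only 5 of the 16 arrays left out in turn (adjusted p up to 0.184). It was also lost when the prefix entered the fit (0.198). In C57BL/6 mice Saa3 differed by 0.27 ± 0.14 (limma, adjusted p = 0.34). The difference of the stroke changes did not pass for Cp, Lbp or Saa3. Lcn2 and Serpina3n, both secreted by reactive astrocytes, rose the most: Lcn2 from 4.35 ± 0.32 to 7.35 ± 0.77 in C57BL/6 mice and from 4.12 ± 0.36 to 7.44 ± 0.63 in the TNF knockout label, and Serpina3n by 1.88 ± 0.20 and 1.68 ± 0.20. The fibrinogen genes Fga, Fgb and Fgg, classical liver targets of interleukin-6, differed by -0.02, -0.06 and -0.12 in C57BL/6 mice and by -0.36, 0.02 and 0.26 in the TNF knockout label, none past the threshold.

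**Figure D4:**
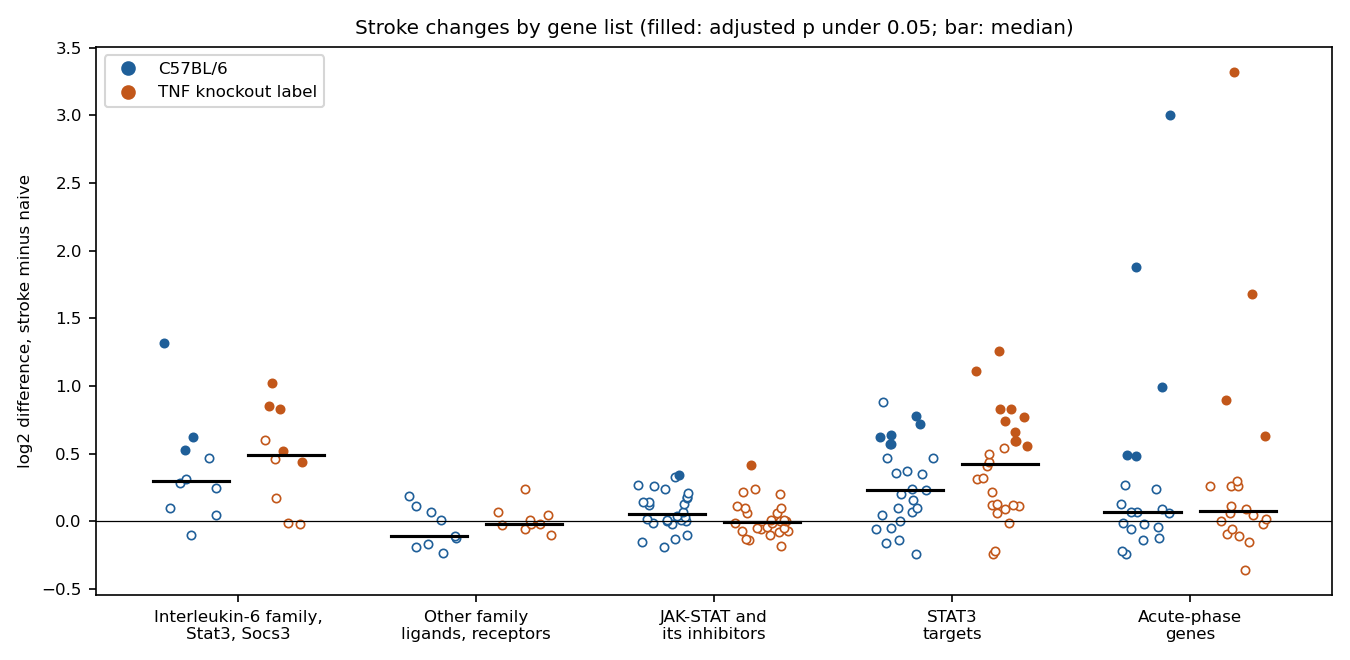
Log2 difference between stroke and naive (vertical axis) of each gene in the 5 lists (horizontal axis), in C57BL/6 mice and in the TNF knockout label. Filled points have an adjusted p under 0.05, and bars are medians: 0.30 and 0.49 for the interleukin-6 family members, and 0.23 and 0.42 for STAT3 targets.

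The genes whose pattern over the 16 arrays lay nearest to a member were found by the root mean square difference of log2 values, each gene centred on its own mean. Nearest to Osmr were Srgn (0.20), Ctsc (0.22) and Ch25h (0.23), where the median over all genes other than unnamed gene models was 0.65. Srgn, a proteoglycan of secretory granules, differed from naive by 1.24 in C57BL/6 mice and 0.98 in the TNF knockout label. Nearest to Socs3 were Zfp36 (0.16), Tubb6 (0.16) and Myd88 (0.17), against a median of 0.42. Nearest to Stat3 were Cyp1b1 (0.12), Pros1 (0.13) and Irf9 (0.13), against a median of 0.34. The measure favours genes with a change of like size, and no test was made of it.

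Marker lists of the cells of the brain and blood were read beside these genes. The mean of the microglia and macrophage markers was 6.62 to 6.70 in naive and 6.72 to 6.98 in stroke arrays of C57BL/6 mice, without overlap, and 6.54 to 6.70 and 6.55 to 6.69 in the TNF knockout label. Of these 7 markers Cd68 alone passed after stroke, higher in both labels. In the TNF knockout label 3 of the 7 differed upwards from naive, with a median of -0.13 and a lowest difference of -0.44. The neutrophil markers averaged 4.02 to 4.07 in naive and 4.18 to 4.46 in stroke arrays of the TNF knockout label, and 4.04 to 4.24 and 4.04 to 4.44 in C57BL/6 mice, with 0 of 10 past the threshold in either (limma; 4 and 3 at an unadjusted p under 0.05, which 8.39 and 17.1 percent of all genes reached). The astrocyte markers averaged 8.97 to 9.09 in naive and 9.03 to 9.28 in stroke arrays of C57BL/6 mice, and 9.01 to 9.18 and 9.06 to 9.11 in the TNF knockout label. Of these 9 markers, Gjb6 and Gfap passed in C57BL/6 mice and Gfap alone in the TNF knockout label, all higher after stroke. In C57BL/6 mice 6 of 9 differed upwards, with a median of 0.07. In the TNF knockout label 3 of 9 did, with a median of -0.11. Lower means after stroke, without overlap, were found for 4 lists in the TNF knockout label: neurons (10.80 to 10.84 in naive and 10.71 to 10.75 in stroke arrays), oligodendrocytes (9.93 to 10.05 and 9.73 to 9.90), endothelial cells (7.04 to 7.25 and 6.95 to 7.02) and pericytes (up to 7.18 and 6.84 to 6.99, with the highest stroke array just under the lowest naive one). In C57BL/6 mice the ranges of the last 3 overlapped, at 9.97 to 10.25 and 9.99 to 10.33, 7.01 to 7.26 and 7.04 to 7.40, and 6.91 to 7.12 and 6.93 to 7.02, and those of neurons met at 10.72. Taken singly, 3 of 9 neuronal, 2 of 5 oligodendrocyte, 2 of 8 endothelial and 1 of 6 pericyte markers had stroke arrays wholly below naive ones in the TNF knockout label. The share of all genes with such lower ranges was not computed. The prefixes KL76 and KL82 are unevenly split between these groups, and their part was not tested. Of the genes in these 4 lists, Rgs5, a pericyte marker, was the only one past the threshold against naive, lower after stroke in the TNF knockout label. Between the stroke groups Cnp, Cldn5 and Cd68 passed, each lower in the TNF knockout label (limma), where 0.436 percent of all genes were called. In the lists that hold them, 5 of 5 oligodendrocyte, 3 of 8 endothelial and 3 of 7 microglia and macrophage markers had an unadjusted p under 0.05. Over all genes 11.3 percent reached it. The part of these cells in the changes of the interleukin-6 family was not tested.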

How the data were processed

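Each of the 16 whole-brain RNA samples was measured on 1 Affymetrix Mouse Gene 1.0 ST array. The values are the authors' deposited log2 probe set summaries: they run from 1.42 to 14.53 and carry no stated log base, so log2 is read from their range. Named in the submitters' processing notes, without role or order, are GCOS, GCRMA, RMA and Partek. The number of arrays limits the precision.

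Groups came from the sample labels. Of 28944 probe sets, 21789 had 1 gene symbol in the platform annotation, 1621 several and 5534 none. The first kind entered, and the probe set with the highest mean stood for each of 999 genes with several, which left 19938 genes. limma 3.58.1 (R 4.3.3; lmFit and eBayes) fitted the 4 group means on all 16 arrays, with 12 residual and 7.52 prior degrees of freedom. Calls have a Benjamini-Hochberg adjusted p under 0.05. An exact permutation test planned for the gap between the Socs3 probe sets is not reported, since the second was chosen for its disagreement. No array duplicated another.

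The members, gene lists and tests were chosen with earlier results of these data known. Named genes are all members, from each pathway list up to 5 with the smallest p past the threshold after stroke and any past it elsewhere, the 3 nearest to Osmr, Socs3 and Stat3, and Tnf. Lifr, Cntfr, Jak1, Jak2, Socs1 and the fibrinogen genes fall outside that rule and were added for their roles after their values were seen, as were the single markers. List genes without a probe set of their own symbol were not analysed here.

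On simulated data for stroke in C57BL/6 mice (19938 genes, 200 changed), 74 percent of changes of 0.5 and 98 percent of changes of 1.0 were recovered. The simulated noise was independent between genes, with no deviation shared within an array, so these rates need not hold for the real arrays. Deviations of same-numbered arrays from their group means correlated between groups at -0.07 to 0.34. All 4 correlations were above 0.1 in 0 of 6 pairs of groups. Between naive and stroke arrays of the TNF knockout label 3 of 4 were above it, as were 3 of 4 between the stroke groups. Some shared deviation by number is therefore possible. The labels state no pairing, so numbers were not used to pair samples. Alternatives were quantile normalization, leaving out the 6647 dimmest genes by mean, a trended and robust prior, only the groups compared, a replicate block, the sample name prefix as a term and leaving out each array. The prefix term for the second Socs3 probe set was chosen after seeing the data.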

Additional observations from a re-analysis of the deposited data

Results flagged for a closer look

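In 10 of the 116 groups of 4 arrays examined, over the members and named genes, 1 array stood apart from the other 3 by Dixon's criterion, where chance alone gives about 1 in 20. Among the members, Il6ra read 6.20 in naive array 2 of the TNF knockout label, where the next value was 6.05. Il11 read 5.25 in naive array 1 of that label (next 4.93) and 5.21, the lowest, in its stroke array 1 (next 5.66). Osmr read 5.09 in naive array 3 of C57BL/6 mice (next 4.88), and Clcf1 read 5.36, the lowest, in the same array (next 5.52). Among the other genes, Stat2 read 7.38 in stroke array 3 of C57BL/6 mice (next 7.13), and Bcl3 read 5.67 in naive array 3 of the TNF knockout label (next 5.41). Stroke array 1 of that label held Serpina3n at 10.19 (next 9.38) and Lbp at 7.55 (next 7.21). Tnf read 5.28, the lowest, in stroke array 2 of C57BL/6 mice (next 5.64).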

How the results depend on the processing

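Among 414 values of members and named genes under settings other than leaving out an array, 385 kept direction and side of the threshold, 20 lost a call, 1 gained one and 8 changed sign; causes were not tested. The count of genes called for stroke in C57BL/6 mice, 334, was 536 without the dimmest genes, 516 with a trended and robust prior, 98 with only the groups compared and 559 with the replicate block, and 107 to 639 on leaving out 1 array. In the TNF knockout label 128 became 72 with the prefix term (69 to 145 on leaving out 1 array), and the members called went from 5 to 2 with that term (2 to 6). Between labels in naive mice 77 became 185, 51 and 141 without the dimmest genes, with only the groups compared and with the replicate block (23 to 138). After stroke 87 became 164, 162 and 46 without the dimmest genes, with the trended prior and with only the groups compared (47 to 120). For the difference of changes 0 became 4 with the trended prior and 1 with the replicate block (0 to 3). Leaving out the dimmest genes took Il6, Il11, Lif and Osm out of the test.

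The replicate block, where samples are known to share only a number, ended the call of Clcf1 (0.44, adjusted p = 0.0504 by limma) and of Saa3 (0.63, adjusted p = 0.0695) in the TNF knockout label.

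The changes of sign were small. With quantile normalization Il6st after stroke in the TNF knockout label was 0.01, Il11 and Lif between labels in naive mice 0.05 and 0.08, and the difference of changes 0.00 for Osm and 0.04 for Stat3. With the prefix term, Il6ra after stroke in the TNF knockout label was 0.05, its difference of changes 0.00, and the second Socs3 probe set 0.00. On leaving out 1 array, stroke in C57BL/6 mice ran from -0.06 to 0.14 for Il6ra, from -0.04 to 0.24 for Osm and from -0.08 to 0.12 for the second Socs3 probe set. In the TNF knockout label it ran from -0.07 to 0.02 for Il6ra, from -0.05 to 0.00 for Il6st and from -0.06 to 0.06 for the second Socs3 probe set. Between labels in naive mice the ranges were -0.09 to 0.18 for Il6, -0.07 to 0.08 for Il6ra, -0.11 to 0.03 for Il11, -0.10 to 0.07 for Lif and -0.01 to 0.11 for Osm. After stroke they were -0.13 to 0.07 for Il6ra, -0.03 to 0.25 for Osm, -0.25 to 0.04 for Osmr and -0.01 to 0.16 for Socs3. For the difference of changes they were -0.15 to 0.05 for Il6ra, -0.07 to 0.21 for Osm and -0.11 to 0.09 for Stat3. On leaving out 1 array, the wider gap between the Socs3 probe sets after stroke ran from 0.49 to 0.69 in C57BL/6 mice and from 0.75 to 0.99 in the TNF knockout label. The pair was chosen because it disagreed, so these ranges are a description only.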
